A study of Mus musculus with 49 samples.

Results

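Splenic CD8+ T cells homozygous for the *Stat5b* Y699F knock-in (KI) allele were compared with *Stat5b* wild-type (WT) cells after 24 hr of culture with IL-2, by RNA-seq. The comparison took all libraries that GEO labels STAT5B.24h.KI and STAT5B.24h.WT, 3 on each side, which are 6 of the 49 samples of the series. IL-2 binds a receptor made of IL-2Rα, IL-2Rβ, and the common cytokine receptor γ chain, and the kinases JAK1 and JAK3 then phosphorylate STAT5A and STAT5B on a conserved tyrosine. The phosphorylated proteins pair through their SH2 domains, enter the nucleus, and bind GAS motifs near target genes such as *Cish* and *Il2ra*. In CD8+ T cells IL-2 is known for driving growth, division, and the cytotoxic program, and the Y699F change removes from STAT5B the tyrosine that is phosphorylated.

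The series covers a *Stat5b* line (Y699F) and a *Stat5a* line (Y694F), each with KI and WT cells taken at 0, 4, 24, and 48 hr of culture in IL-2 (human recombinant protein, 500 IU/ml), and 3 libraries for each group. The KI cells used here carried the *Stat5b* Y699F allele on both chromosomes and no other engineered allele. The WT cells came from littermates of the same matings and carried none, and both groups were exposed to IL-2 for 24 hr. The allele is in the germline, so every cell of a KI mouse carries it from the zygote on, including the cells in which T cells develop. The line was made in hybrid zygotes and then backcrossed to C57BL/6J, the strain given in the labels. Mice of the study were of both sexes and 8 to 24 weeks old. All 6 libraries used here held *Xist* RNA, at 46.9 to 66.5 RPKM, and at most 3 reads of *Ddx3y*, *Eif2s3y*, *Uty*, or *Kdm5d*, so that they carry the pattern of female cells. CD8+ T cells were isolated from spleens by removing other cells with antibodies, and were not sorted afterwards. The labels do not tie the replicates of a group to separate mice, so that p-values measure the spread between libraries, which may be technical.

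The sequences of the edit are shown because they define the KI group. The codon of tyrosine 699 lies at chr11:100784285-100784287 (GRCm38, minus strand) in exon 17 of the 19 exons of *Stat5b*, whose protein has 786 residues. The guide of the study has 20 bases, has 1 exact match on chromosome 11, and is followed there by the PAM. The window shown is chr11:100784255-100784317, read on the minus strand in the direction of the gene. Capitals mark the tyrosine codon in the reference, the 4 bases that the donor oligonucleotide changes, and the PAM after the guide.
Stat5b reference: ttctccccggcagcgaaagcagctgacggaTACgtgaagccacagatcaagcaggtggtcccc
Stat5b donor: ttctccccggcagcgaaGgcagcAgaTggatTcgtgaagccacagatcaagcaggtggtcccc
Stat5b guide and PAM: ccggcagcgaaagcagctgaCGG
With positions counted from 1 at the 5′ end of the donor, the changes are A54G, T60A, C63T, and A68T. The last of these turns the codon TAC into TTC and gives the protein change Y699F. The other 3 changes are silent at codons 694, 696, and 697. The deposited counts are for whole transcripts, so they do not show which allele the *Stat5b* reads came from.

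The targeted gene was examined first. *Stat5b* mRNA had 25.8, 26.3, and 25.5 RPKM in the WT libraries and 34.3, 33.5, and 34.8 RPKM in the KI libraries, where RPKM is reads per kilobase of transcript, scaled by how many reads were mapped in the library. All KI libraries were above all WT libraries, by 0.37 ± 0.11 (SE) on the log2 scale, which was below the 2-fold threshold used here. *Stat5a* mRNA, which encodes the partner protein that keeps its tyrosine in this line, had 21.5, 21.6, and 20.4 RPKM in WT cells and 20.2, 21.2, and 21.3 RPKM in KI cells, and the groups overlapped. The WT libraries held 48953990, 46645199, and 46475667 reads on the longest transcripts of the genes and the KI libraries 40682537, 34766888, and 39446271. These reads were 77.9%, 79.6%, and 80.0% of the mapped reads in WT cells and 72.5%, 69.9%, and 72.2% in KI cells, and TMM factors were 0.979 to 0.983 in WT cells and 1.105 to 1.109 in KI cells. The groups thus did not overlap in depth or in the share of mapped reads on transcripts, and the part of these differences in the results was not tested. No 2 libraries of a group agreed within sampling noise, with a chi-square per gene of 8.74 to 25.1. *Cd8a* had 255 to 290 RPKM on average in the 24 hr groups of both lines, and *Cd3e*, *Cd8a*, and *Cd8b1*, which define the isolated cells, were not called in this comparison.

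At 24 hr, 898 genes were lower and 1698 higher in *Stat5b* KI cells than in WT cells, of 15566 genes tested. These are 5.77% and 10.9% of the genes tested, at an adjusted p up to 0.05 (edgeR's quasi-likelihood test, adjusted by Benjamini-Hochberg) and a change of 2-fold or more, and genes past both limits are called here. All 3 KI libraries lay below all 3 WT libraries in 31.7% of the genes tested and above them in 35.1%. The genes that fell and those that rose differed in abundance. Genes that fell had a median of 7.39 RPKM in WT cells, whereas genes that rose had a median of 0.361 RPKM in KI cells, and 1190 of them (70.1%) were below 1 RPKM. Among the 2346 genes with a mean of at least 30 RPKM in the higher group, 211 (8.99%) fell and 30 (1.28%) rose. Among the 4605 genes below 1 RPKM, 3.17% fell and 25.8% rose. The split of calls differed between settings. Falls were 34.6% of calls in the whole table, 41% with all 48 libraries in the fit, 52.2% without a fold threshold, 57.1% when only genes of at least 5 RPKM in 2 libraries were kept (488 falls and 366 rises), and 64.8% with limma on log2(RPKM + 1) (480 falls and 261 rises). In these bulk libraries, fewer cells of a type and less RNA per cell cannot be told apart.

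**Figure D1:**
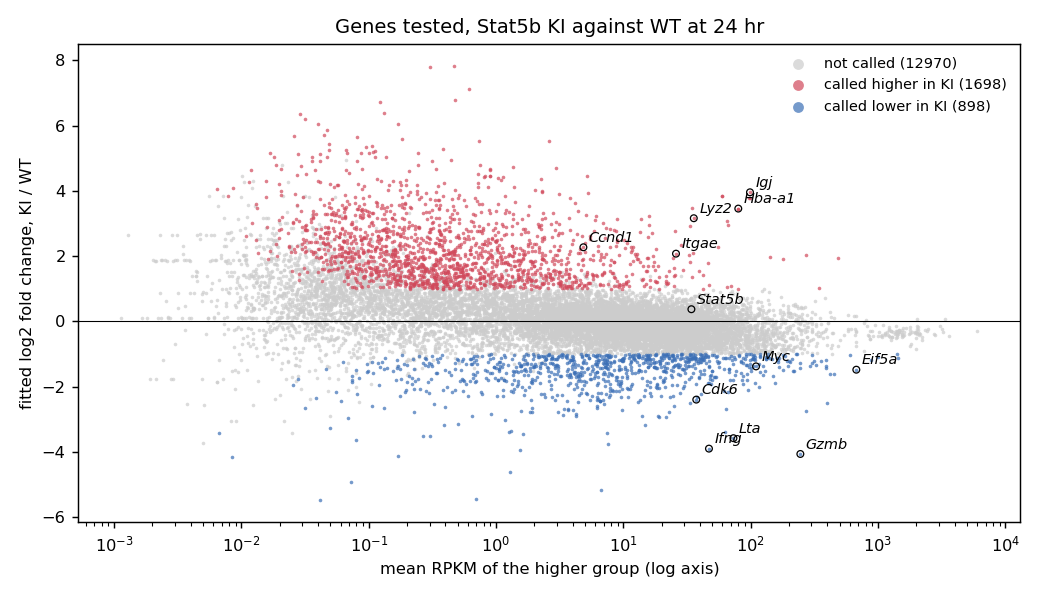
Fitted log2 fold change of *Stat5b* KI against WT cells at 24 hr (vertical axis) against the mean RPKM of the group in which the gene was higher (horizontal axis, log scale), 1 point for each of 15566 genes. Blue and red points are the 898 genes called lower and the 1698 called higher and gray points the 12970 not called, and the called rises crowd below 1 RPKM while the falls extend through the most abundant genes.

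The plot of fold change against level shows the same division gene by gene, with *Gzmb*, *Ifng*, and *Lta* far below 0 at high RPKM. Among the labelled rises are *Igj*, *Hba-a1*, and *Lyz2*, genes of plasma cells, red cell precursors, and macrophages. *Itgae*, an integrin gene of CD8+ T cells, and *Ccnd1* are labelled rises at lower levels. The labelled genes are a choice among those tested.

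The next comparison asked how the genes that IL-2 itself regulates stood in KI cells. The IL-2-regulated genes were taken from WT cells of the *Stat5a* line at 24 against 0 hr, libraries that are not part of the KI comparison. Of 1357 genes induced there (8.72% of those tested), 531 (39.1%) were lower and 25 (1.84%) higher in *Stat5b* KI cells, with a median log2 fold change of −0.80, beside 0.07 over all genes tested. Of 2213 genes reduced there (14.2%), 920 (41.6%) were higher and 30 (1.36%) lower, with a median of 1.07. The reduced genes had a median KI effect of 0.71 already at 0 hr and of 0.85 at 4 hr, whereas the induced genes had medians of 0.13 and −0.05 at these times. Markers of other cells were among the reduced genes, with 14 of 16 B cell, 16 of 20 macrophage, and 9 of 10 dendritic cell markers lower after IL-2 in the *Stat5a* line WT cells, and most of these markers were higher in KI cells. The part of other cells in the counts for the reduced genes was not tested. Of the 11996 genes that IL-2 left uncalled, 337 (2.81%) were lower and 753 (6.28%) higher. The induced genes had a median IL-2 response of 1.46 on the log2 scale in WT cells of the *Stat5b* line and 0.56 in KI cells of that line. The reduced genes had a median response of −1.88 in WT cells and −1.38 in KI cells. Both responses use the 24 hr libraries of the KI comparison and are given as a description.

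Among the 11 IL-2 receptor chains and JAK kinases, *Il2ra* and *Il2rb* fell and none rose, with a median log2 fold change of −0.13. *Il2ra*, which encodes the α chain that gives the receptor its high affinity, had 25.4, 28.3, and 19.4 RPKM in WT cells and 9.29, 9.42, and 9.60 RPKM in KI cells. The groups were apart by more than the spread within either, with a log2 fold change of −1.40 ± 0.35 (SE, edgeR adjusted p = 0.00121), and the adjusted p was 0.239 when all 48 libraries entered the fit. *Il2rb*, the signaling chain shared with IL-15, had 241, 254, and 232 RPKM in WT cells against 98.3, 117.4, and 91.8 RPKM in KI cells (−1.27 ± 0.16). Its level was already 163 ± 6.9 against 92.5 ± 6.7 RPKM (SD, n = 3 each) at 0 hr. *Il2rg*, the common γ chain and the most abundant gene of this list, had a log2 fold change of −0.40 and was not called. None of 7 STAT family genes was called.

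Of 20 STAT5 target and feedback genes 8 fell, 1 rose, and 11 were not called, with a median log2 fold change of −0.89. *Cish*, whose protein binds the IL-2 receptor and dampens its signal, had 36.2, 41.8, and 36.2 RPKM in WT cells and 7.19, 9.39, and 6.74 RPKM in KI cells. Every KI library was below every WT library, with a log2 fold change of −2.32 ± 0.22. *Socs1*, an inhibitor of JAK kinases, had 118.5, 130.1, and 124.6 RPKM in WT cells against 38.9, 44.7, and 39.4 RPKM (−1.63). *Bcl2l1*, which encodes the survival protein BCL-XL, was lower by the same pattern, with 21.4 to 22.8 RPKM in WT cells and 7.39 to 9.90 RPKM in KI cells (−1.42). *Bcl2*, its better known relative, was not called (−0.81), and *Socs2* was not called either (−0.18). The gene that rose was *Bcl6*, a repressor that STAT5 is known to silence, with 1.41, 1.29, and 1.52 RPKM in WT cells and 4.84, 4.49, and 5.08 RPKM in KI cells (1.74 ± 0.18). The part of B cells, whose markers rose as described below, in the *Bcl6* rise was not tested. Of 17 BCL2 family genes tested, *Bcl2l1* fell and *Bmf*, a gene for a protein that promotes cell death, rose from 0.759 to 1.14 RPKM in WT cells to 2.28 to 3.52 RPKM in KI cells (1.54).

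Promoters of 4 genes that fell are shown because they hold the letters of the GAS motif, TTCNNNGAA, in the window from 250 bases before to 50 bases after the RefSeq start. The motif reads the same on both strands, so each match counts once. Sequences are from RefSeq, build GRCm38.p6, given 5′ to 3′ on the strand of the gene, with each match in capitals. Parts of these windows are printed: chr17:35205352-35205563 (minus strand) for *Lta*, chr10:118440796-118440865 (plus strand) for *Ifng*, chr6:67376243-67376371 (minus strand) for *Il12rb2*, and chr9:107296654-107296683 (plus strand) for *Cish*.
Lta: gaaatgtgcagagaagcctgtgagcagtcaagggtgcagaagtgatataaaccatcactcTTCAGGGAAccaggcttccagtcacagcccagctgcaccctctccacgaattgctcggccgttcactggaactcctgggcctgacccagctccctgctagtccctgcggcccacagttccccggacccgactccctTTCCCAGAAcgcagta
Ifng: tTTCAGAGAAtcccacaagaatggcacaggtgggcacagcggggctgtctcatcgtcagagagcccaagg
Il12rb2: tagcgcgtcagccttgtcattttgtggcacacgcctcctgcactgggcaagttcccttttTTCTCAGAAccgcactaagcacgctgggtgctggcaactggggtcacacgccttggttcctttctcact
Cish: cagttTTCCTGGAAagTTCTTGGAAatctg
The match nearest to the RefSeq start begins 16 bases before it in *Lta*, 249 bases before it in *Ifng*, and at the start and 11 bases after it in *Cish*. Of 32851 whole promoter windows, from 250 bases before to 50 bases after the start, 2726 (8.30%) held the motif, so a match alone is common. Only 78.7% of the genes that fell, 75.2% of those that rose, and 77.5% of all genes tested had a window. Of the genes with a window, 10.6%, 8.69%, and 8.41% held the motif, and the difference between these shares was not tested. A match describes letters and does not show binding in these cells.

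Most cytokine and chemokine genes fell. Of 19 tested, 11 fell (*Ifng*, *Lif*, *Lta*, *Ccl3*, *Xcl1*, *Csf2*, *Ccl4*, *Tnf*, *Tnfsf14*, *Osm*, and *Tnfsf11*) and *Il10* rose, with a median log2 fold change of −1.96. *Lta*, which encodes lymphotoxin α, had 75.0, 85.1, and 59.4 RPKM in WT cells and 5.95, 6.85, and 5.94 RPKM in KI cells. The KI libraries were tightly grouped and far below WT, with a log2 fold change of −3.58 ± 0.13 (edgeR adjusted p = 2.77e-22). *Ifng*, the gene for interferon γ, had 53.0, 54.2, and 33.7 RPKM in WT cells against 3.67, 3.21, and 2.76 RPKM in KI cells (−3.90 ± 0.37). *Tnf* had 33.4, 37.0, and 29.0 RPKM in WT cells against 6.03, 7.10, and 4.87 RPKM in KI cells (−2.49 ± 0.18). For these and for *Osm* (24.5 to 28.1 RPKM in WT cells, 6.51 to 7.32 RPKM in KI cells, −1.96), a cytokine gene known as a direct STAT5 target, no WT library overlapped a KI library. *Lif*, a related cytokine gene, stood at 7.07 to 8.56 RPKM in WT cells and 0.409 to 0.770 RPKM in KI cells (−3.76).

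Among the chemokine genes, *Xcl1*, which attracts cross-presenting dendritic cells, had 306, 335, and 169 RPKM in WT cells and 44.4, 42.3, and 35.8 RPKM in KI cells (−2.75 ± 0.23). *Ccl3* and *Ccl4*, genes for chemokines that draw in other leukocytes, had 37.7 to 80.8 and 46.2 to 77.3 RPKM in WT cells and 4.77 to 6.81 and 9.38 to 11.2 RPKM in KI cells (−3.39 and −2.68). *Ccl1* was the gene that fell most of all those with at least 5 RPKM, from 8.004, 8.95, and 3.03 RPKM to 0.212, 0.159, and 0.181 RPKM (−5.17 ± 0.60). In each of these genes WT replicate 3 was the lowest of the WT libraries, and it was still well above every KI library. *Il12rb2*, which encodes a chain of the IL-12 receptor, was the only 1 of 17 genes for receptors of other cytokines that fell (median 0.07), from 9.54, 11.2, and 8.60 RPKM to 1.48, 1.24, and 1.88 RPKM (−2.70 ± 0.23). *Il1r2*, the gene for an IL-1 decoy receptor, rose (2.02). *Il6ra* (0.20) and *Il6st* (0.56) were not called, nor were *Il16* (0.47) and *Crem* (−0.42). *Il7r*, the α chain of the IL-7 receptor, was higher in every KI library, at 152.5, 108.7, and 123.8 RPKM against 64.5, 65.0, and 61.0 RPKM, yet its log2 fold change of 0.98 was just under the threshold.

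Of 15 cytotoxic effector genes tested, 5 fell and 1 rose, with a median log2 fold change of −0.44. *Gzmb*, the gene for granzyme B, which triggers death of target cells, had 219, 314, and 202 RPKM in WT cells and 13.8, 13.8, and 17.4 RPKM in KI cells. The lowest WT library was more than 10 times the highest KI library, with a log2 fold change of −4.06 ± 0.34 (edgeR adjusted p = 2.27e-12). *Gzmc* had 4.77 to 9.61 RPKM in WT cells and 0.400 to 0.926 RPKM in KI cells (−3.42), and *Gzmg* had 12 reads in the WT libraries together and 0 in the KI libraries, at least 3.65-fold lower at a floor of 3 reads. *Fasl*, the ligand of the death receptor FAS, had a log2 fold change of −1.17. *Gzma* was called lower (−1.20), but its groups overlapped, with 9.08, 13.4, and 34.4 RPKM in WT cells and 11.7, 7.10, and 6.40 RPKM in KI cells. *Gzmk* was the gene that rose, from 14.6, 17.5, and 7.58 RPKM to 53.0, 44.0, and 42.5 RPKM (1.78 ± 0.62, edgeR adjusted p = 0.0165). Without WT replicate 3 its adjusted p was 0.0828, and with all 48 libraries 0.0517. *Prf1*, which encodes perforin (0.23), and *Ccl5*, which resting memory cells express (0.45), were not called. The fall was therefore not shared by all genes of the cytotoxic granule.

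**Figure D2:**
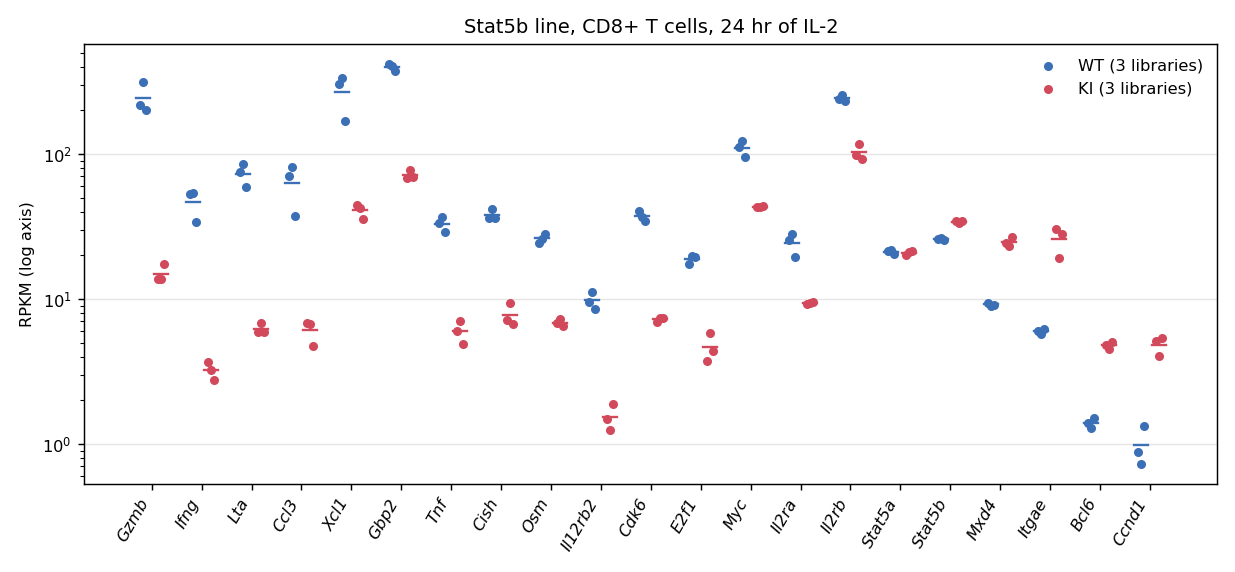
RPKM (log axis) of 21 genes in the 3 WT libraries (blue) and the 3 KI libraries (red) at 24 hr, 1 point for each library, with a horizontal bar at the mean of each group. *Gzmb*, *Ifng*, and *Lta* have the widest gaps between the groups, *Stat5a* overlaps, and *Bcl6*, *Ccnd1*, *Mxd4*, and *Itgae* lie higher in KI cells.

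The plot of single libraries shows that the spread within a group was small beside the gap between groups for most of these genes. Markers of memory-phenotype CD8+ T cells, which respond readily to IL-2 and IL-15, moved along with the effector genes: 7 of 17 fell and none rose, with a median log2 fold change of −0.79. Their summed level was 2722, 2842, and 2772 CPM (reads of a gene scaled to an equal library size) in WT cells and 1972, 2009, and 1710 CPM in KI cells. Summed CPM here and below use library sizes without the TMM factors, which were larger in KI cells. *Ly6c2*, for a surface protein of memory cells, was at 406, 450, and 498 RPKM in WT cells and at 166.3, 136.7, and 149.1 RPKM in KI cells (−1.61). At 0 hr the same markers had a median of −0.85 with 5 genes called lower. *Tbx21*, for the transcription factor T-bet, was lower (18.3 to 24.0 RPKM against 7.07 to 7.41 RPKM, −1.53), whereas *Eomes* (−0.79) and *Cd44* (−0.07) were not called. The part of a different share of memory-phenotype cells in the effector gene differences was not tested.

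NK cell markers gave 4 lower and 1 higher of 12, with summed levels of 106.1, 130.3, and 124.4 CPM in WT cells and 102, 67.1, and 77.8 CPM in KI cells. *Klrb1c*, *Klra7*, *Klre1*, and *Gzma* were the lower ones, and *Tyrobp*, which myeloid cells express too, the higher one, joined by others to 3 without WT replicate 3 and 2 without KI replicate 3. *Klrb1c*, which encodes NK1.1, had 3.41 to 5.37 RPKM in WT cells and 0.431 to 0.724 RPKM in KI cells (−2.83). *Klra23* and *Klra13-ps*, of the Ly49 receptor family that NK cells and some CD8+ T cells carry, were among the 10 largest falls at 5 RPKM or more (−2.92 and −2.94). Their read counts were nearly equal in every library, with 1100 for *Klra13-ps* and 1126 for *Klra23* in WT replicate 1 and 88 and 91 in KI replicate 3, so these are not independent measurements and the same reads may have been counted under both symbols. *Klra23* was already at 23.6 ± 2.3 against 2.81 ± 0.69 RPKM at 0 hr. Another gene of that group of 10 was *AA467197*, whose product is a small mitochondrial protein, with 13.6, 12.8, and 18.0 RPKM in WT cells and 1.61, 1.98, and 1.40 RPKM in KI cells (−3.18). *Mir147* overlaps it, and their reads cannot be told apart.

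Genes of growth control and of the cell cycle were next. *Myc*, which encodes a transcription factor that drives growth and metabolism of activated T cells, had 95.3 to 122.9 RPKM in WT cells (mean 110.1) and 42.9, 43.0, and 43.7 RPKM in KI cells. The KI libraries were almost identical and below every WT library (−1.38 ± 0.18, edgeR adjusted p = 4.06e-08). Of 12 genes of the MYC network, *Mycn*, *Mxd3*, and *Myc* fell and *Mxd4* and *Mycl* rose, with a median of 0.08 beside 0.07 over all genes tested. *Mxd4*, whose protein competes with MYC for its partner MAX, had 9.37, 9.02, and 9.15 RPKM in WT cells and 24.4, 23.2, and 26.8 RPKM in KI cells (1.41 ± 0.16).

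*Cdk6*, a kinase gene that takes cells through G1, had 40.6, 36.8, and 34.7 RPKM in WT cells and 6.99, 7.34, and 7.39 RPKM in KI cells (−2.40 ± 0.11, edgeR adjusted p = 1.58e-18). *Cdk4*, its close relative, was lower by less (−1.12), and *Cdk7*, part of the general transcription machinery, was not called (−0.01). Of 19 cyclins, CDKs, and CDC25 phosphatases, 9 fell and 1 rose, with a median of −0.85. The cyclins of S phase and mitosis *Ccne1*, *Ccne2*, *Ccna2*, and *Ccnb1* were among the 9. The D cyclins differed among themselves: *Ccnd2* (−0.83) and *Ccnd3* (−0.85) were not called, and *Ccnd1* rose from 0.884, 0.733, and 1.33 RPKM to 5.11, 4.02, and 5.42 RPKM (2.27 ± 0.30). *Ccnd1* is also expressed by macrophages and stromal cells. Of 7 CDK inhibitor genes *Cdkn2b* rose (1.42) and none fell.

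Of 13 E2F family and partner genes 5 fell and none rose (median −0.80). *E2f1*, an activator of S phase genes, had 17.4, 19.9, and 19.6 RPKM in WT cells and 3.74, 5.84, and 4.37 RPKM in KI cells (−2.05 ± 0.16, edgeR adjusted p = 7.85e-13). *E2f7* and *E2f8*, repressors made in S phase, fell by 1.81 and 1.73 on the log2 scale, *E2f3* by 1.31, and *Tfdp1*, the partner of the E2F activators, by 1.65. *E2f2* had a log2 fold change of −0.50 and was not called.

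DNA replication was the list with the most falls: 31 of 40 genes fell, none rose, and the median log2 fold change was −1.54. All 6 of the MCM helicase genes examined were lower in every KI library. *Mcm2*, for instance, was at 72.4, 79.6, and 77.8 RPKM in WT cells and at 25.6, 31.1, and 24.4 RPKM in KI cells (−1.53). *Pcna*, the gene for the sliding clamp, was at 264, 285, and 325 RPKM against 112.3, 125.1, and 105.8 RPKM (−1.37). *Rrm2*, a subunit of the enzyme that makes deoxynucleotides, was at 49.0, 67.5, and 68.1 RPKM against 11.8, 16.7, and 14.1 RPKM (−2.14). *Orc1*, of the origin recognition complex, fell most in the list (−2.65 ± 0.21), whereas *Tyms* (−0.31) was not called. DNA repair genes followed, with 11 of 21 lower, none higher, and a median of −1.43. *Rpa1*, the most abundant gene of the repair list, was not called (−0.35).

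Mitosis genes fell in 17 of 24 cases, with none higher and a median of −1.32. *Mki67*, the gene of the proliferation marker Ki-67, was at 20.3, 26.9, and 25.2 RPKM in WT cells and at 8.87, 12.3, and 10.5 RPKM in KI cells (−1.22). *Top2a*, a topoisomerase gene of dividing cells, was at 44.2 to 62.0 RPKM against 14.7 to 19.6 RPKM (−1.70). *Bub1*, of the spindle checkpoint, had the largest fall of the list (−1.95), and *Cenpa*, a centromeric histone gene, was not called (0.19). *Melk* and *Spdl1*, a kinase and a spindle protein gene named in the study, fell by 1.67 and 1.25. In WT cells the level of *Mki67* was 6.41 ± 0.80 RPKM at 0 hr, 24.1 ± 3.4 RPKM at 24 hr, and 101 ± 4.8 RPKM at 48 hr. In KI cells it was 16.2 ± 0.90 RPKM at 0 hr, 10.6 ± 1.7 RPKM at 24 hr, and 37.1 ± 7.4 RPKM at 48 hr (SD, n = 3 each). The KI libraries thus started above the WT libraries in this gene and stood below them from 24 hr on. At 0 hr 15 of 16 B cell, 7 of 7 plasma cell, and 9 of 10 erythroid markers were also called higher in KI libraries, and none lower. The part of such cells in the early *Mki67* level was not tested.

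The lists of biosynthesis came next. Among 34 ribosome biogenesis genes 17 fell and none rose (median −1.01), and all 34 were lower at the adjusted p alone, with no limit on the fold, where 26.3% of all genes were. *Npm1*, a nucleolar chaperone gene, was at 855, 878, and 927 RPKM in WT cells and at 426, 396, and 384 RPKM in KI cells (−1.17). *Nop16*, a gene for an assembly factor of the large ribosomal subunit, was at 26.0 to 26.8 RPKM against 10.2 to 11.1 RPKM (−1.34). Of 20 aminoacyl-tRNA synthetase genes 3 fell and all 20 were lower at the adjusted p alone (median −0.82). The 3 were 1 without WT replicate 2 and 5 without WT replicate 3 or KI replicate 2. *Wars*, the tryptophan enzyme, which interferon γ also induces, fell most, from 117.2, 122.7, and 110 RPKM to 28.1, 30.1, and 30.0 RPKM (−2.02 ± 0.13). *Tars* had a log2 fold change of −0.75 and was not called.

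Of 32 translation initiation and elongation genes, *Eif5a*, *Eif4ebp1*, and *Eif2b3* fell, 29 were lower at the adjusted p alone, and the median was −0.68. The falls numbered 6 without WT replicate 1 and 5 without KI replicate 1 or KI replicate 2. *Eif5a*, which helps ribosomes through difficult sequences, had 649, 687, and 690 RPKM in WT cells and 249, 247, and 245 RPKM in KI cells (−1.48). No proteasome subunit gene passed the 2-fold limit among 37, although all 37 were lower at the adjusted p alone, between −0.97 and −0.30 on the log2 scale. Among 21 chaperone genes 9 fell (median −0.96), including *Hspd1*, the mitochondrial HSP60 gene, at 179, 176, and 188 RPKM against 67.7, 66.5, and 61.2 RPKM (−1.50).

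**Figure D3:**
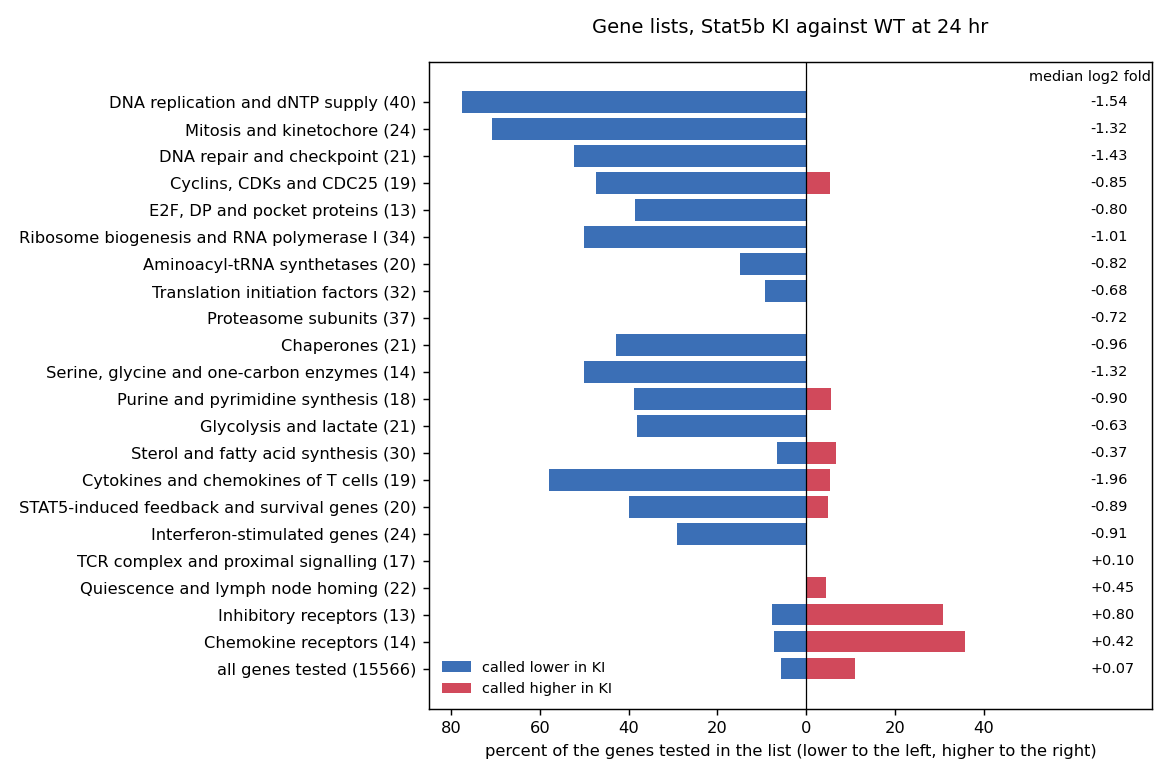
Share of the tested genes of 21 lists called lower (blue, to the left) and called higher (red, to the right) in *Stat5b* KI against WT cells at 24 hr, in percent, with the median log2 fold change of each list beside it and all genes tested for reference. DNA replication, mitosis, and cytokine genes have the longest bars to the left, and chemokine receptor and inhibitory receptor genes the longest to the right.

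The plot of lists sets these shares beside the 5.77% lower and 10.9% higher over all genes. In serine and one-carbon metabolism, which feeds nucleotide synthesis, 7 of 14 genes fell and none rose (median −1.32). *Shmt1* was at 24.3, 27.7, and 22.2 RPKM in WT cells and at 4.56, 5.75, and 5.21 RPKM in KI cells (−2.28). *Psat1* and *Phgdh*, enzymes that make serine, fell by 1.88 and 1.50. In purine and pyrimidine synthesis 7 of 18 fell and 1, *Adssl1*, rose (median −0.90). In glycolysis 8 of 21 fell and none rose (median −0.63). *Hk2*, the hexokinase of activated T cells, fell by 1.83, and *Ldha*, lactate dehydrogenase A, was at 327, 386, and 359 RPKM against 155, 164, and 156 RPKM (−1.20). *Gapdh* was at the limit (−1.02) and dropped below 2-fold under 8 other settings.

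Amino acid transporters were mixed. Of 12 genes *Slc7a5*, *Slc1a4*, and *Slc7a1* fell and *Slc7a7* and *Slc7a11* rose (median −0.33). *Slc7a5*, which carries leucine and other large neutral amino acids, had 44.3, 56.2, and 41.6 RPKM in WT cells and 12.7, 13.7, and 13.0 RPKM in KI cells (−1.88 ± 0.12). Both genes that rose are also expressed by macrophages. Of 30 genes of sterol and fatty acid synthesis *Idi1* and *Fasn* fell, *Scd1* and *Fads2* rose, and the median was −0.37. At the adjusted p alone 20 of them were lower and 2 higher. Only 1 gene fell without WT replicate 2, KI replicate 1, or KI replicate 3, and 1 rose without KI replicate 1. *Scd1*, a stearoyl-CoA desaturase gene, had 0.796, 0.967, and 1.01 RPKM in WT cells and 5.26, 4.80, and 6.28 RPKM in KI cells (2.53 ± 0.37), while *Scd2* was not called (−0.46). The zinc transporter gene *Slc30a4* fell by 2.02, the helicase gene *Mov10* by 1.70, *Setbp1* by 1.84, and *Spata5* by 1.06, and *Nek6* (−0.83) and *Larp1* (−0.95) were not called.

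Interferon-stimulated genes fell in 7 of 24 cases and none rose (median −0.91). *Gbp2*, a guanylate-binding protein gene induced by interferon γ, had 418, 407, and 374 RPKM in WT cells and 68.6, 77.8, and 69.8 RPKM in KI cells (−2.50 ± 0.33). *Oasl2* and *Ifit3*, genes of the antiviral response, fell by 2.41 and 1.50. None of 12 genes of MHC class I presentation was called (median −0.48). Among 19 AP-1, EGR, NR4A, and other early response genes, *Jun*, *Fosl1*, *Nr4a3*, *Fosl2*, and *Egr3* fell and *Dusp4* rose, and 3 fell without WT replicate 2. *Jun* was at 30.3, 33.5, and 26.8 RPKM in WT cells and at 6.73, 10.1, and 6.34 RPKM in KI cells (−1.99), below in every KI library. None of 17 T cell receptor complex and signaling genes was called (median 0.10).

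In genes of quiescence and of naive T cells the medians were above 0, and 1 gene was called. Of 22 quiescence genes 16 were higher at the adjusted p alone, where 24.1% of all genes were, and *Klf4* was called (median 0.45), with 2 genes called without WT replicate 1, KI replicate 2, or KI replicate 3. *Tcf7* (0.72) and *Klf2* (0.49), transcription factors of resting T cells, were higher in KI cells without being called. *Tcf7* was at 230 ± 15 RPKM in WT cells and 386 ± 13 RPKM in KI cells (SD, n = 3 each). None of 11 naive markers was called (median 0.47), although their summed level was 4457, 4372, and 4456 CPM in WT cells and 6885, 6231, and 6879 CPM in KI cells. *Itgae*, which encodes the integrin CD103 of naive and tissue-resident CD8+ T cells, was the only 1 of 12 integrin and adhesion genes that rose, from 6.02, 5.78, and 6.20 RPKM to 30.3, 19.1, and 28.3 RPKM (2.08 ± 0.26, edgeR adjusted p = 2.79e-08). At 0 hr it stood at 26.1 ± 0.96 RPKM in WT cells and 22.9 ± 3.9 RPKM in KI cells, and the difference of the KI effects at the 2 times was 2.33.

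Inhibitory receptor genes gave 4 rises and 1 fall of 13 (median 0.80). *Lag3*, which binds MHC class II, had 2.15, 1.62, and 1.50 RPKM in WT cells and 6.93, 7.20, and 6.87 RPKM in KI cells (1.96). *Tigit* (1.40), *Havcr2*, and *Pdcd1* were the other rises and *Cd160* was the fall. Among 23 effector and memory transcription factor genes *Tox*, *Tox2*, and *Prdm1* rose and *Tbx21* and *Nfil3* fell, with a median of −0.04 and a log2 fold change of 1.09 for *Tox*. Without WT replicate 2 the counts were 5 rises and 1 fall. Of 14 chemokine receptor genes 5 rose and *Cx3cr1* fell (median 0.42), the latter not past the limit without WT replicate 2, WT replicate 3, or KI replicate 2. *Ccr6* had 0.353 to 0.453 RPKM in WT cells and 3.57 to 3.95 RPKM in KI cells (3.18), and *Cxcr4*, the receptor of CXCL12, had 20.4 to 21.0 RPKM against 41.0 to 43.5 RPKM (1.00). *Ccr6*, *Cxcr5*, and *Cxcr4* are also expressed by B cells, and *Prdm1* by plasma cells, whose markers rose as described next.

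The largest rises were in genes of other cells. Over all lists of markers of other cell types 71 genes rose and 6 fell, and the number tested is given with each list. For comparison, 10.9% of all genes tested rose and 5.77% fell. Of 16 B cell markers 15 rose and none fell, with a median log2 fold change of 2.84. Their summed level was 388, 363, and 480 CPM in WT cells and 1902, 1866, and 2155 CPM in KI cells, and *Cd74*, which other antigen-presenting cells also express, was the most abundant. *Cd79a*, part of the B cell receptor, had 8.74, 7.05, and 9.48 RPKM in WT cells and 63.5, 62.9, and 73.3 RPKM in KI cells (2.95). The sum of the B cell markers was higher in every KI library than in any WT library.

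Plasma cell markers rose in 6 of 7 cases (median 3.38), with summed levels of 79.7, 77.6, and 60.8 CPM in WT cells and 400, 361, and 502 CPM in KI cells. *Igj*, the joining chain of secreted antibodies, was the most abundant, at 6.96, 5.99, and 5.67 RPKM against 95.2, 79.1, and 121.9 RPKM (3.96 ± 0.63). All 20 macrophage and monocyte markers rose (median 3.11), and their sum was 24.4, 19.8, and 26.8 CPM in WT cells and 261, 154, and 206 CPM in KI cells. *Lyz2*, the lysozyme gene and the most abundant of them, had 3.57, 2.10, and 6.03 RPKM against 47.5, 20.2, and 39.5 RPKM (3.16). *Trem2*, a receptor gene of macrophages, had 0 reads in WT cells and 86 in KI cells, at least 31.4-fold higher. *Gpnmb*, of lipid-laden macrophages, had 0.238 to 0.512 RPKM against 2.85 to 7.27 RPKM (3.93), and *Cd5l*, of splenic macrophages, had the largest rise among genes of at least 5 RPKM (4.47).

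Erythroid markers rose in 8 of 10 cases tested and 1, *Tfrc*, fell (median 3.61). *Tfrc*, the transferrin receptor gene, is also made by activated T cells. The summed erythroid level was 174, 163, and 224 CPM in WT cells and 446, 240, and 374 CPM in KI cells. *Hba-a1*, an α globin gene, had 5.12, 6.50, and 9.73 RPKM against 101, 49.96, and 88.4 RPKM (3.46 ± 0.55). KI replicate 2 was the lowest KI library in the erythroid and macrophage sums and remained above every WT library in them. For the erythroid sum this margin was smaller than the gap between the TMM factors, so it is lost when they are applied. In RPKM the erythroid sum was 43.2, 46.4, and 67.8 in WT cells and 434, 196, and 363 in KI cells. The globin genes *Hbb-bs*, *Hbb-bt*, *Hba-a1*, and *Hba-a2* include near-identical copies, so their single values are uncertain. *Hba-a1* and *Hba-a2* had the same read counts in every library.

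Dendritic cell markers rose in 6 of 10 cases (median 1.20), with *Bst2*, an interferon-stimulated gene, as the most abundant and sums of 175, 166, and 182 CPM against 317, 217, and 298 CPM. *Bst2* itself had a log2 fold change of −0.94 and was not called. On the RPKM scale, which weighs genes by length, the sum of the list went the other way, from 122.4, 116.5, and 126.9 in WT cells to 112.3, 85.1, and 105.5 in KI cells. Neutrophil markers rose in 7 of 8 cases tested but from very little, at 1.10, 1.03, and 2.43 CPM against 7.74, 8.69, and 5.27 CPM, and *Elane* had no read in the 6 libraries. Mast cell markers rose in 2 of 6 cases, at 15.9 to 19.1 CPM against 33.5 to 52.1 CPM, and in none without KI replicate 3. Megakaryocyte markers gave no call among 6, at 1.21 to 2.66 CPM against 3.88 to 4.49 CPM, and stromal and endothelial markers gave 3 rises and 1 fall among 8, at 129.6 to 146.5 CPM against 173 to 212 CPM.

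Of 6 markers of CD4+ T cells 3 rose (*Cd4*, *Cd40lg*, and *Foxp3*, median 1.18) and 3 were not called, and their sum was 44.3, 43.7, and 41.4 CPM in WT cells and at least 121.6 CPM in every KI library. *Cd4* itself had 1.99, 1.90, and 2.09 RPKM against 11.3, 10.3, and 10.5 RPKM (2.40). Of 4 tested markers of γδ T cells the 1 that rose was *Blk*, a B cell gene that is also in the B cell list, and the sum, in which *Blk* was the most abundant gene, went from between 3.52 and 5.34 CPM to between 30.9 and 35.2 CPM. The 7 markers of CD8+ T cells had no call (median 0.11), with sums of 3703, 3643, and 3788 CPM in WT cells and 4229, 4259, and 4356 CPM in KI cells. With the TMM factors applied, the CD8+ T cell sums of the groups overlap. The part of other cells in the rises of genes outside the marker lists was not tested.

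**Figure D4:**
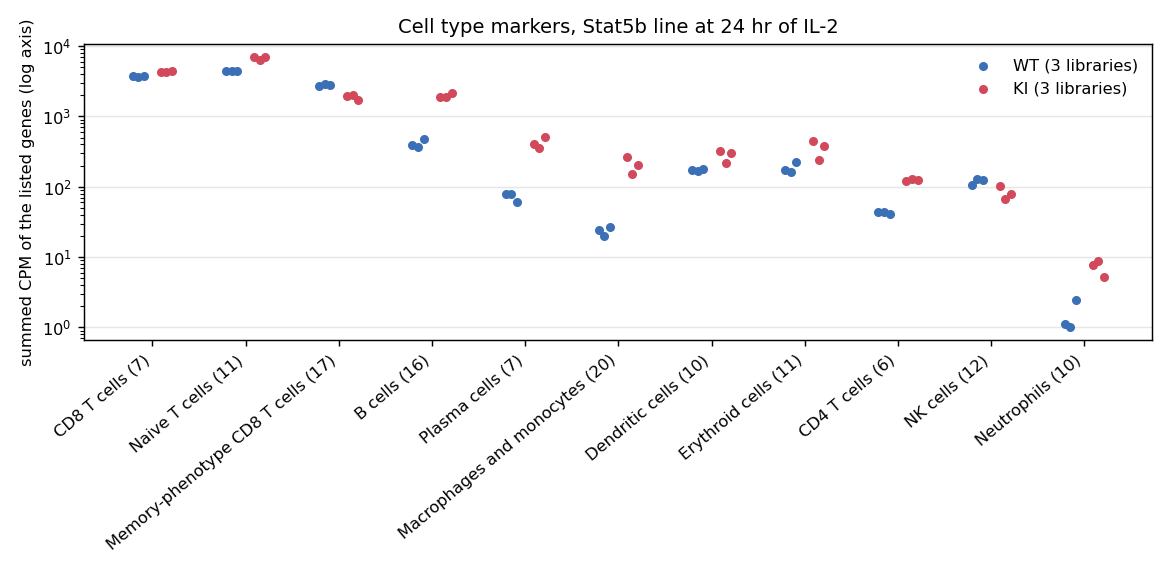
Summed CPM (log axis, without the TMM factors) of 11 marker lists in the 3 WT libraries (blue) and the 3 KI libraries (red) at 24 hr, 1 point for each library and the number of genes of each list in brackets. The KI libraries lie above the WT libraries for B cells, plasma cells, macrophages, and erythroid cells, and below them for memory-phenotype CD8+ T cells.

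On the scale plotted, the groups did not overlap for any of these 5 lists. With the TMM factors applied, KI replicate 2 falls below WT replicate 3 in the erythroid sum, which also holds *Tfrc*. Several of these markers were higher in KI cells before any IL-2 was added. At 0 hr, 15 of the 16 B cell markers (median 1.93) and 18 of the 20 macrophage markers (median 1.96) were called higher. *Cd79a* was at 20.4 ± 2.3 RPKM in WT cells and 82.9 ± 2.0 RPKM in KI cells at 0 hr, and at 8.42 ± 1.2 and 66.6 ± 5.8 RPKM at 24 hr (SD, n = 3 each). Its level was thus lower at 24 hr than at 0 hr in both groups.

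The KI effect at 24 hr was set beside those at the other times in the same line, which use other libraries. At 0 hr, 94 genes (0.604%) were lower and 1148 (7.38%) higher in KI cells, at 4 hr 191 (1.23%) and 1432 (9.20%), and at 48 hr 1527 (9.81%) and 2564 (16.5%). Of the genes that fell at 24 hr, 5.01% were also lower at 0 hr, 12.0% at 4 hr, and 86.0% at 48 hr. More of them were called the other way at the early times, with 12.0% higher in KI cells at 0 hr and 12.5% at 4 hr. The genes lower at both times were 47.9% of the genes lower at 0 hr, 56.5% at 4 hr, and 50.6% at 48 hr. Of the genes that rose at 24 hr, 682 (40.2%) were also higher at 0 hr, 868 (51.1%) at 4 hr, and 1349 (79.4%) at 48 hr, or 59.4%, 60.6%, and 52.6% of the genes higher then. These shares follow in part from how many genes were called in each direction at each time, and the difference between them was not tested. Among the 169 rises at 5 RPKM or more, 93 (55.0%) were also higher at 0 hr.

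The difference of the KI effects at 24 and 0 hr was itself tested. It was called negative in 1036 genes (6.66%) and positive in 547 (3.51%). In 33 of 40 DNA replication genes and 23 of 24 mitosis genes the KI effect was more negative at 24 hr. The median of the mitosis genes was 1.16 at 0 hr, with 17 of 24 higher in KI cells, against −1.32 at 24 hr. *Melk* was such a gene, with 1.20 at 0 hr and −1.67 at 24 hr. The part of other cells in the mitosis genes at 0 hr, when B cell, plasma cell, and erythroid markers were higher too, was not tested. Cytokine genes had a median of 0.11 at 0 hr and −1.96 at 24 hr. The negative differences with the largest size at 5 RPKM or more included *Ccl1*, at 0.0362 ± 0.036 RPKM in WT cells at 0 hr and 6.66 ± 3.2 RPKM at 24 hr, *Lif*, and *Ccl3*. The positive ones included *Itgae* (2.33) and the macrophage gene *Gpnmb*. Below 5 RPKM at 24 hr, the difference was also called positive in *Treml4* (3.10) and the macrophage gene *Csf1r* (2.37).

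**Figure D5:**
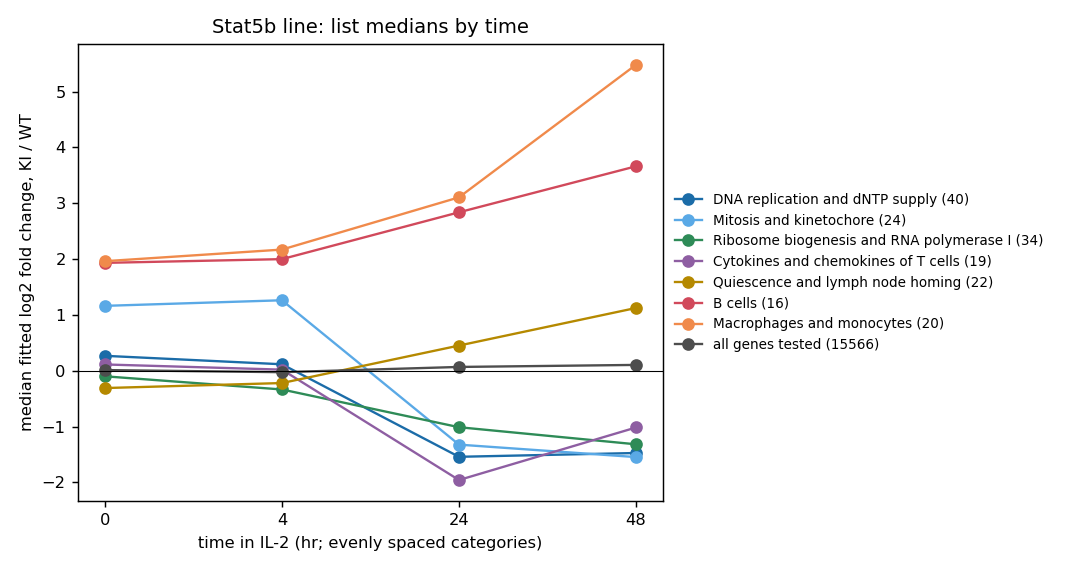
Median log2 fold change of *Stat5b* KI against WT cells (vertical axis) at 0, 4, 24, and 48 hr of culture with IL-2 (horizontal axis) for 7 gene lists and all genes tested. Mitosis and DNA replication genes pass from above 0 at 0 hr to below −1 at 24 hr, cytokine genes are lowest at 24 hr, and B cell markers stay above 1 throughout.

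The plot of medians by time sets the cell cycle and cytokine lists, which were not below 0 at 0 hr, beside the B cell and macrophage markers, which were above 1 at every time. Some genes were already lower in KI cells at 4 hr. *Cdk6* was at 23.9 ± 2.5 RPKM in WT cells and 5.23 ± 0.36 RPKM in KI cells at 4 hr, *Lta* at 51.2 ± 1.3 and 8.32 ± 0.42 RPKM, and *Myc* at 97.1 ± 6.9 and 39.3 ± 3.5 RPKM (SD, n = 3 each). *Cish* was at 47.4 ± 3.7 RPKM in WT cells and 13.4 ± 1.6 RPKM in KI cells. In KI cells *Cdk6* hardly left its level of 5.45 ± 0.22 RPKM at 0 hr, and *Lta* reached 6.25 ± 0.52 RPKM at 24 hr from 3.97 ± 0.50 RPKM.

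Other genes were called at 24 hr and not at 4 hr, and the difference between these times was not tested. *E2f1* was at 1.78 ± 0.054 RPKM in WT cells and 2.63 ± 0.40 RPKM in KI cells at 4 hr, against 18.9 ± 1.3 and 4.65 ± 1.1 RPKM at 24 hr. *Ifng* was at 2.15 ± 0.37 and 1.80 ± 0.075 RPKM at 4 hr, against 46.99 ± 11 and 3.22 ± 0.46 RPKM at 24 hr. *Slc7a5* was at 14.9 ± 0.37 and 16.2 ± 1.8 RPKM at 4 hr, against 47.4 ± 7.8 and 13.1 ± 0.49 RPKM at 24 hr.

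From 24 to 48 hr the KI effect became more negative in 0.752% of genes and more positive in 1.16%. The latter was 0.733% without WT replicate 1 and 0.727% without KI replicate 2 at 24 hr, and 0.759% without WT replicate 2 and 0.701% without KI replicate 3 at 48 hr. *Scd2* was at 10.7 ± 0.67 and 7.95 ± 0.60 RPKM at 24 hr and at 52.1 ± 7.9 and 8.91 ± 0.98 RPKM at 48 hr in WT and KI cells. *Socs2* was at 8.46 ± 0.67 and 7.58 ± 1.0 RPKM at 24 hr and at 15.1 ± 1.2 and 4.46 ± 0.71 RPKM at 48 hr. *Xcl1*, by contrast, was at 156 ± 22 RPKM in WT cells and 95.5 ± 15 RPKM in KI cells at 48 hr, a smaller gap than at 24 hr. The sterol and fatty acid list had 2 genes lower at 24 hr and 16 at 48 hr, and ribosome biogenesis 17 and 25. The difference between the 2 times was called negative in 5 of the 30 sterol and fatty acid genes (median −0.70) and in none of the 34 ribosome biogenesis genes (median −0.28).

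The *Stat5a* KI line was compared at the same time. There 193 genes (1.24%) were lower and 499 (3.21%) higher in KI cells than in WT cells of that line at 24 hr. Of the genes that fell in *Stat5b* KI cells 16.9% fell in *Stat5a* KI cells, which are 78.8% of those that fell there. Of the genes that rose 463 (27.3%) rose in both lines, which are 92.8% of those that rose in *Stat5a* KI cells. The KI effect itself differed between the lines in 413 genes (2.65%), more negative in *Stat5b* KI cells in 1.27% and more positive in 1.39%. These shares moved with single libraries. The share more positive was 2.23% without *Stat5a* KI replicate 1, 0.643% without *Stat5a* KI replicate 2, 0.887% without *Stat5a* KI replicate 3 or *Stat5b* WT replicate 2, and 0.784% without *Stat5a* WT replicate 2.

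Genes with a larger fall in *Stat5b* KI cells included growth and effector genes. *Myc* was at 98.6 ± 4.4 RPKM in WT cells and 85.1 ± 8.8 RPKM in KI cells of the *Stat5a* line, and the difference of the KI effects was −1.10. *Cdk6* was at 32.5 ± 2.6 and 13.8 ± 1.0 RPKM in that line (difference −1.09), and *Gzmb* at 174 ± 58 and 42.0 ± 4.2 RPKM (difference −1.94). *Osm* (−1.68), *Lta* (−1.48), *Tnf* (−1.44), *Cish* (−1.39), and *E2f1* (−1.29) were called in the same direction. Of 40 DNA replication genes the difference was called negative in 17, and the medians were −1.54 in *Stat5b* KI cells and −0.59 in *Stat5a* KI cells, where 1 gene fell.

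Other genes fell in both lines. *Gbp2* was at 405 ± 72 RPKM in WT cells and 120.6 ± 32 RPKM in KI cells of the *Stat5a* line, and 14 of the 24 interferon-stimulated genes fell there (median −1.05), against 7 in *Stat5b* KI cells (median −0.91). The difference between the lines was called in none of the 24 (median 0.16). *Il2ra* was at 19.3 ± 4.5 RPKM and 7.26 ± 1.0 RPKM in that line. B cell markers rose in 15 of 16 cases (median 1.62) and macrophage markers in 16 of 20 (median 1.98). For erythroid markers the median was 0.04 in *Stat5a* KI cells, the difference was called positive in 6 of 10, and *Hba-a1* was at 9.52 ± 2.1 RPKM in WT cells and 10.7 ± 3.4 RPKM in KI cells of that line (difference 3.36).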

How the data were processed

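Splenic CD8+ T cells were profiled by RNA-seq. Per the methods and the submitters' processing notes, 50 bp single-end reads were mapped to mm10 (GRCm38) with TopHat2 2.0.11 and Bowtie2 2.2.6, uniquely mapped reads were retained, and SAMtools 0.1.8 and bedtools 2.25.0 were used. For every RefSeq transcript and library the authors deposited raw read counts and RPKM, the latter scaled to transcript length and mapped reads. The counting program and the use of strand are not given in the sources used here, so overlapping and antisense genes cannot be told apart. Of 31682 transcripts the longest of each of 23992 symbols was used. No column was left without a sample (0 columns of other samples).

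The count test was edgeR 4.0.16 in R 4.3.3, with TMM, filterByExpr (minimum count 10), and the quasi-likelihood test with 1 mean per group over 47 libraries. *Stat5a* KI replicate 3 at 4 hr was left out, since the study's means leave it out. That library held 1028515 reads on the longest transcripts, 5.675% of its mapped reads. Calls needed a Benjamini-Hochberg adjusted p up to 0.05 together with a change of 2-fold or more. RPKM values are levels, and fold changes are from the count fit. A floor of 3 reads equals 0.0613 to 0.0863 CPM in the 6 libraries and covers counting error alone, because no molecular identifiers were used. Lists were described by counts and medians. The genes of the lists, the members, and the named genes were chosen with earlier results of these data known. Named were *Stat5a*, *Stat5b*, the genes that the study names for RNA-seq, the 10 largest falls and rises whose groups did not overlap at 5 and at 30 RPKM, the 5 largest differences each way between lines and from 0 hr, the extreme and most abundant members of each list, and examples from lists. Some members of the lists that this rule names are not reported here.

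Alternatives were other sets of libraries, DESeq2 1.42.0 and its size factors, no filter and a filter of 5 RPKM in 2 libraries, limma 3.58.1 on log2(RPKM + 1) and log2(RPKM + 0.1), no fold threshold, the transcript with the highest count, a replicate block, and each library left out. The code was tested on simulated counts. Promoters were RefSeq windows of GRCm38.p6. Figures were drawn with matplotlib 3.10.9, pandas 2.3.3, and numpy 2.4.6 in Python 3.11.15.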

Additional observations from a re-analysis of the deposited data

Results flagged for a closer look

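The values below stand out because the KI effect itself was tested and differed between the lines or between times (edgeR's quasi-likelihood test, Benjamini-Hochberg adjustment over all genes, and a difference of at least 1 on the log2 scale). Other genes met the same limits and are not listed here. The groups had 3 libraries each, so single libraries were not tested as outliers, and no cause was tested.

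At 24 hr the KI effect was more negative in the *Stat5b* line than in the *Stat5a* line in the genes that follow. The difference was −1.10 for *Myc*, −1.29 for *E2f1*, and −1.09 for *Cdk6*. Among cytokine genes and the feedback gene *Cish* it was −1.44 for *Tnf*, −1.48 for *Lta*, −1.68 for *Osm*, and −1.39 for *Cish*. Among chemokine genes it was −2.97 for *Ccl1*, −1.26 for *Ccl3*, −1.47 for *Xcl1*, and −1.21 for *Ccl4*. The granzyme genes had −1.94 for *Gzmb* and −2.15 for *Gzmc*. It was −1.73 for *Slc30a4*, −1.79 for *Klra13-ps*, and −1.75 for *Klra23*. *AA467197* had −2.65 and the overlapping *Mir147* −2.17, and *Snord68*, a small RNA gene whose call in the 24 hr comparison was lost under 8 other settings, had −2.09.

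The effect was more positive in the *Stat5b* line in genes of red cell precursors, macrophages, and plasma cells. The β globin genes had 3.51 for *Hbb-b2* and *Hbb-bt*, 3.41 for *Hbb-b1*, and 3.40 for *Hbb-bs*. The α globin genes *Hba-a1* and *Hba-a2* had 3.36 each. Read counts were the same in all 6 libraries for *Hbb-b2* and *Hbb-bt* and for *Hba-a1* and *Hba-a2*, and within 3 reads for *Hbb-b1* and *Hbb-bs*, so each pair is 1 measurement. Macrophage genes had 1.99 for *Gpnmb*, 1.37 for *Apoe*, 2.33 for *Csf1r*, and 2.11 for *Tgfbi*, and the plasma cell gene *Mzb1* had 1.54.

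Within the *Stat5b* line, the KI effect on *Melk*, a kinase gene of mitosis, was lower at 24 than at 0 hr by −2.87. *Melk* was called higher in KI cells at 0 hr and lower at 24 hr. Other named genes also had a called difference from 0 hr, among them *Lta* (−3.72), *Gzmb* (−4.21), and *Csf1r* (2.37). From 24 to 48 hr the effect became more negative by −1.66 for *Socs2*, −1.71 for *Scd1*, and −2.17 for *Scd2*. It became more positive by 3.45 for *Ccl1*, 1.53 for *Gzmc*, 1.42 for *Ccl3*, 1.96 for *Xcl1*, 1.47 for *Ccl4*, and 1.67 for *Gbp2*, genes that were lower in KI cells at 24 hr. It was 1.10 for *Klra13-ps* and 1.08 for *Klra23*. For the macrophage genes *Cd5l* and *Lyz2*, which were higher in KI cells at 24 hr, it became more positive by 3.57 and 2.11.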

How the results depend on the processing

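The counts of genes lower and higher in *Stat5b* KI cells at 24 hr were 898 and 1698, and 839 to 959 and 1504 to 1582 with 1 of the 6 libraries left out. They were 488 and 366 with the filter of 5 RPKM in 2 libraries, 480 and 261 with limma on log2(RPKM + 1), 670 higher with limma on log2(RPKM + 0.1), and 4094 and 3749 without a fold threshold. DESeq2's size factors gave 844 and 1756 and a median over all genes of 0.10 in place of 0.07.

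The difference between the lines, negative in 1.27% and positive in 1.39% of the genes tested in each fit, was 0.695% and 0.266% with all 48 libraries, 1.05% and 0.829% with the RPKM filter, 0.920% and 0.205% with limma on log2(RPKM + 1), 11.4% and 2.76% without a fold threshold, and 0.901% to 1.42% and 0.643% to 2.23% with 1 library left out. Its positive share was 2.86% with only the groups compared and 0.690% with limma on log2(RPKM + 0.1). The difference from 0 hr (6.66% and 3.51%) was 7% and 2.90% with the RPKM filter, 19.6% and 14.2% without a fold threshold, and 6.11% to 6.82% and 3.24% to 3.92% with 1 library left out. Its positive share was 5.73% with only the groups compared, 2.36% with all 48 libraries, and 0.997% and 2.01% with limma at the pseudocounts 1 and 0.1. The difference from 48 hr (0.752% and 1.16%) was 1.3% and 2.47% with only the groups compared, 1.24% and 2.33% with the 24 libraries of the line, 0.331% and 0.312% with all 48 libraries, 0.213% and 0.562% with limma on log2(RPKM + 1), 4.18% and 5.15% without a fold threshold, and 0.636% to 0.951% and 0.701% to 1.02% with 1 library left out. Its negative share was 0.442% with the RPKM filter and 0.443% with limma on log2(RPKM + 0.1). Of the IL-2-reduced genes 22.3% were higher with limma on log2(RPKM + 1), and 39.1% to 43.4% with 1 library left out. Of the IL-2-induced genes 34.3% to 40.8% were lower. The cause of these shifts was not tested.

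Signs changed in these alternatives for genes that were not called. *Cdk7* (−0.01) had 0.020 with DESeq2's size factors and Wald test, 0.10 with the RPKM filter, 0.014 and 0.017 with limma, and −0.066 to 0.033 with 1 library left out. With the RPKM filter *Stat5a* had 0.071 and *Id2* 0.013. With the replicate number as a block 898 and 1703 genes were called, of which 892 and 1678 were shared. Same-numbered libraries deviated with correlations of −0.03, 0.05, and −0.02, so the numbers did not pair the samples. Depth limits the genes below 1 RPKM, where most rises lie.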

Other observations

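Since the strain was made in hybrid zygotes, the genes around *Stat5b* on chromosome 11 were examined. Within 5 Mb of the gene 199 were tested, of which 13 (6.53%) were lower and 20 (10.1%) higher in KI cells, with a median log2 fold change of 0.13. Within 10 Mb 287 were tested, of which 21 (7.32%) were lower and 37 (12.9%) higher, with a median of 0.18. These shares lie near the 5.77% and 10.9% of all genes tested.

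*GIMAP* genes, which encode small GTPases of lymphocyte survival, gave no call among 8, with a median of −0.13, and *Gimap4* had 424 to 452 RPKM in WT cells and 326 to 369 RPKM in KI cells (−0.37). Of 14 costimulatory receptor and ligand genes *Tnfrsf9*, for the activation receptor 4-1BB, was lower, at 30.3, 35.1, and 22.9 RPKM in WT cells and 6.99, 6.92, and 7.89 RPKM in KI cells (−2.05). *Cd40lg*, a gene of helper T cells, was higher in that list, at 0.382 to 0.840 RPKM against 1.54 to 1.98 RPKM (1.48), and the costimulatory genes as a whole had a median of 0.22.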
